A study of Pleurotus ostreatus with 53 samples.

Results

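The genes described here are the 363 of 11820 genes of the oyster mushroom *Pleurotus ostreatus* whose mRNA was raised in the mycelium of both dikaryons over both monokaryons. A gene was included when its mean log2(RPKM + 1) was at least 2 above the higher of the PC9 and PC15 means in HyB and again in N001 mycelium. RPKM is reads per kb of gene per 1000000 mapped reads. A second condition, that the N001 primordium and fruitbody means each stay less than 3 above N001 mycelium, left out 7 further genes with far more mRNA in fruiting tissue than in N001 mycelium. The members were therefore chosen on mRNA means of all 6 groups. Their mRNA differences between dikaryons and monokaryons, and between the fruiting stages and N001 mycelium, are descriptions with no test.

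Monokaryotic hyphae of mushrooms such as *Pleurotus* carry 1 kind of haploid nucleus. When compatible monokaryons mate they fuse into a dikaryon, in which both parental nuclei divide side by side without fusing, and it is the dikaryon that forms primordia and fruitbodies under the control of mating-type genes. In fungi, cytosine methylation at CG sites and small RNAs are best known for silencing transposable elements (TEs) and genes close to them.

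The study measured polyA mRNA, small RNA and bisulfite-treated DNA in 6 groups with 3 biological replicates each, as stated in the series description. The groups were mycelium of HyB, the dikaryon obtained by mating PC9 with PC15 and labelled N001_HyB, then N001, a dikaryon whose strain field reads N0001, sampled as mycelium, as primordium and as fruitbody, and mycelium of the monokaryons PC9 and PC15. Only 2 primordium libraries of bisulfite-treated DNA were used, so 53 libraries were analysed. No growth condition is given in the labels. Each monokaryon is a single strain, so a trait of the strain and a trait of monokaryons cannot be told apart for either alone. The dikaryons are likewise HyB and N001 alone. A p-value for dikaryons against monokaryons therefore measures the spread between libraries and not between strains.

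The mRNA libraries held 19628882 to 30123574 mapped reads, totals inferred from the RPKM values and gene lengths. The small RNA libraries held 191411 to 5746479 reads, counted over genes and TEs. Genes are known only by number. None of the 11849 genes in the annotation available for the species carried one of these numbers, so no gene below is given a name or function, and no tissue marker could be looked up. In mRNA replicate 1 stood apart from replicates 2 and 3 in 5 of the 6 groups, with a chi-square per degree of freedom of 112 to 523 against them. Between replicates 2 and 3 of those groups it was 119 in PC9, 88.8 in N001 mycelium, 26.1 in PC15, 3.82 in HyB and 1.56 in primordium, so that the last 2 pairs differed by little more than counting noise. In fruitbody all 3 libraries differed alike, at 173 to 226. Replicates 2 and 3 of HyB and of primordium were kept as separate replicates, with the average of each pair as an alternative. In bulk mycelium or tissue, fewer cells expressing a gene and less RNA per cell cannot be told apart.

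Across the 363 genes the median mRNA level was 20.7, 88.3 and 89.3 RPKM in the 3 HyB libraries and 55.0, 108 and 94.0 RPKM in the N001 mycelium libraries, against 3.0, 2.09 and 2.16 RPKM in PC9 and 4.52, 2.91 and 2.83 RPKM in PC15. All 6 dikaryon mycelium libraries lay above all 6 monokaryon libraries on this median, with HyB replicate 1 the lowest of the 6. Together the genes took 4.78% to 12.2% of all gene RPKM in HyB and 16% to 16.9% in N001 mycelium, against at most 1.17% in PC9 and 0.504% in PC15. Primordium held 6.22% to 7.07% and fruitbody 5.31% to 6.29%.

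**Figure D1:**
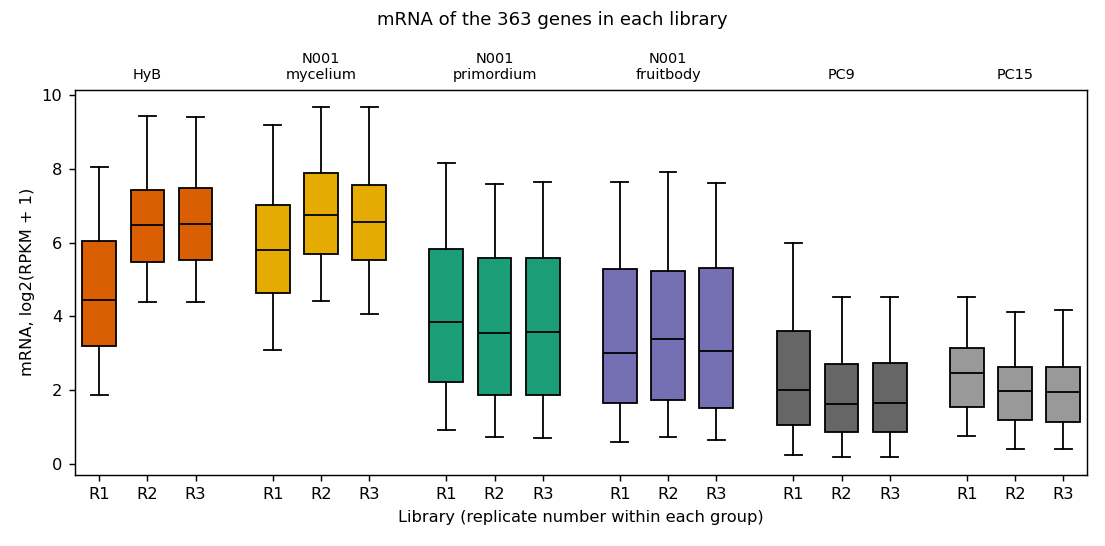
mRNA of the 363 genes in each of the 18 libraries, as log2(RPKM + 1). Boxes span the quartiles with a line at the median and whiskers reach the 5th and 95th percentiles over genes. HyB replicate 1 (median 20.7 RPKM) lies below the other 2 HyB libraries (88.3 and 89.3 RPKM), while every monokaryon library has a median of at most 4.52 RPKM.

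The margin, the lower dikaryon mean minus the higher monokaryon mean, ran from 2.0 to 6.95 with a median of 2.86 on the log2(RPKM + 1) scale, which understates the fold of low genes. It was at least 4 for 75 genes, at least 3 for 163 and under 2.5 for 113. Mean mRNA was under 1 RPKM in both monokaryons for 33 genes and over 10 RPKM in a monokaryon for 92, while 110 genes exceeded 100 RPKM in both dikaryon mycelia. Just inside the threshold stood 1059203, 156509 and 1105254, each with a margin that rounds to 2.0. Gene 1059203 had 60.7, 122 and 125 RPKM in HyB and 68.8, 108 and 129.9 RPKM in N001 mycelium, against 35.3, 18.5 and 19.97 RPKM in PC9 and 25.2, 15.9 and 17.3 RPKM in PC15. Gene 1105254 had 28.2, 216 and 212 RPKM in HyB, against 43.2, 20.3 and 21.3 RPKM in PC9, so that HyB replicate 1 lay below PC9 replicate 1. The closest genes outside the threshold were 1104645, 1048324 and 1098760, with margins of 1.999, 1.996 and 1.995. At gene 1104645, just outside, mean mRNA was 39.2 RPKM in HyB and 128 RPKM in N001 mycelium, against 13.9 RPKM in PC9 and 5.22 RPKM in PC15, so the threshold cuts through a continuous range of differences.

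How far the set depends on replicate 1 can be read from the libraries themselves. In replicates 2 and 3 the median margin was 3.63, and it was above 0 for all 363 genes and at least 2 for 353. In the replicate 1 libraries alone the median margin was 1.25, with 310 genes above 0 and 100 at or above 2. Both dikaryons contributed: in replicate 1 the median difference to the higher monokaryon was 1.48 in HyB and 2.69 in N001 mycelium. When the rule was applied to replicates 2 and 3 only, it chose 549 genes, among them 353 of the 363. In the replicate 1 libraries that this choice had not used, those 549 genes had a median margin of 0.63, above 0 for 67.8% and at least 2 for 17.5%. Leaving out replicate 2 or 3 in the same way gave 289 and 285 genes, of which 93.4% and 93.3% reached a margin of 2 in the libraries left out. Replicates 2 and 3 of HyB differed by little more than counting noise, so a near copy of the HyB library left out remained among those used. These 2 shares are therefore no independent check of the set. Over single genes, all 6 dikaryon libraries exceeded all 6 monokaryon libraries for 304 of the 363. The same was true of 6.64% of all genes, but since the rule used this contrast nothing is read from that count.

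The gene with the largest margin, 1089236 (scaffold 4, bases 3115647 to 3116935), was close to silent in monokaryons and at one level in every dikaryon group. Its mRNA was 145, 129 and 125 RPKM in HyB and 161, 110.1 and 137 RPKM in N001 mycelium, against 0.220, 0.0318 and 0 RPKM in PC9 and 0.227, 0 and 0 RPKM in PC15. Primordium had 91.3, 129 and 127 RPKM and fruitbody 117, 111 and 109 RPKM. All 12 dikaryon libraries, replicate 1 included, lay between 91.3 and 161 RPKM, and no monokaryon library exceeded 0.227 RPKM.

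Gene 1096331 (scaffold 4, bases 186163 to 188473) had the same margin, 6.95, with a different course through fruiting. It stood at 218, 1002 and 826 RPKM in HyB and 1697, 541 and 760.4 RPKM in N001 mycelium, against 3.34, 4.0 and 3.42 RPKM in PC9 and 3.06, 2.20 and 2.26 RPKM in PC15. In primordium it had 12.9, 4.83 and 4.67 RPKM and in fruitbody 7.28, 4.52 and 3.47 RPKM. Its fruitbody libraries overlapped those of PC9 and its primordium libraries lay just above them, all far under the mycelium of the same strain.

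The most abundant mRNAs of N001 mycelium in the set included 199491 (scaffold 6, bases 1618103 to 1620010), at 4733, 7753 and 10929 RPKM in N001 mycelium. In HyB it had 16.7, 2437 and 2142 RPKM, against 3.28, 1.27 and 1.87 RPKM in PC9 and 5.47, 2.39 and 2.38 RPKM in PC15. HyB replicate 1 was thus more than 100 times lower than the other HyB libraries, although still above all 6 monokaryon libraries. Fruiting stages were again low, with 4.28, 1.33 and 1.23 RPKM in primordium and 2.32, 1.03 and 1.62 RPKM in fruitbody. Gene 1062901 (scaffold 3, bases 2754223 to 2755925) had the same form, with 6.59, 394 and 384 RPKM in HyB and 136, 240.4 and 453 RPKM in N001 mycelium, against 0.332, 0.433 and 0.236 RPKM in PC9 and 0.750, 0.551 and 0.473 RPKM in PC15. For both genes the mean of HyB rests on replicates 2 and 3.

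Other large margins belonged to genes that stayed raised in fruiting. At 1091822 (scaffold 2, bases 427207 to 427896) mRNA was 1871, 579 and 582 RPKM in HyB and 306, 259.6 and 521 RPKM in N001 mycelium, against 2.23, 1.96 and 2.53 RPKM in PC9 and 2.49, 3.65 and 6.58 RPKM in PC15. Its primordium values were 2579.7, 715 and 723 RPKM and its fruitbody values 2005, 1822 and 1326 RPKM, so that all 12 dikaryon libraries exceeded 259 RPKM. Gene 1091049 (scaffold 11, bases 2203536 to 2204197) had 529, 2193 and 2137 RPKM in HyB and 509.9, 586 and 547 RPKM in N001 mycelium, against 7.70, 3.03 and 2.97 RPKM in PC9 and 7.18, 3.81 and 5.83 RPKM in PC15. Primordium kept 102, 105 and 111 RPKM, below every mycelium library of the dikaryons and above every monokaryon library. Genes 1098611 and 1087630, with margins of 5.92 and 5.74, lay between these forms: 1098611 averaged 1498 ± 805 RPKM in N001 mycelium, 271 ± 226 RPKM in primordium and 147 ± 75.9 RPKM in fruitbody (SD, n = 3).

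**Figure D2:**
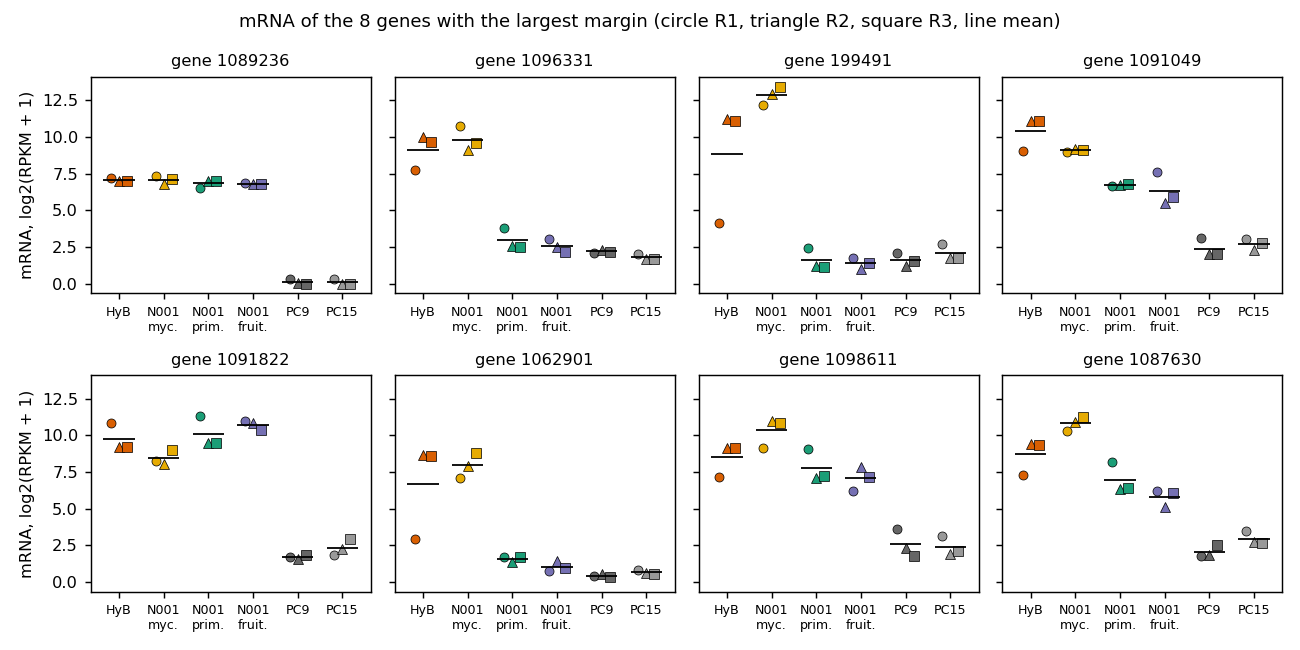
mRNA of the 8 genes with the largest margin, as log2(RPKM + 1) in each library (circle, triangle and square for replicates 1, 2 and 3) with the group mean as a line. Genes 1089236 and 1091822 stay high in primordium and fruitbody, while 1096331, 199491 and 1062901 are near the monokaryon range there. HyB replicate 1 of 199491 (16.7 RPKM) and of 1062901 (6.59 RPKM) lies far below replicates 2 and 3.

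The rule fixed no direction between the dikaryons. N001 mycelium was compared with HyB by limma on log2(RPKM + 1) over 10928 genes, with p-values adjusted by the Benjamini-Hochberg method over all genes and a threshold of 0.05. Of the 363 genes, 31 were higher and 7 lower in N001 mycelium, and 325 did not pass. In all, 10.5% of members passed, against 11.1% of all genes tested. By direction, 3.61% of all genes were higher and 7.47% lower in N001 mycelium. With each library centred on its median, 45 members were higher and 6 lower, where 11.3% of all genes passed. The median difference was 0.44 for the members and −0.06 for all genes. In replicates 2 and 3 alone, 85 members were higher and 54 lower, where 22.1% of all genes passed. The balance of directions rests on single libraries. Without HyB replicate 1, 19 were higher and 32 lower, and without N001 mycelium replicate 2, 16 were higher and 11 lower. Without N001 mycelium replicate 3 the counts were 17 and 7.

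The largest differences lay in 2 genes with far more mRNA in N001 mycelium. Gene 1113759 (scaffold 8, bases 581866 to 583581) had 17446, 3858 and 4497 RPKM in N001 mycelium, against 265, 13.5 and 13.5 RPKM in HyB. The log2 difference was 7.46 ± 0.99 (SE), with adjusted p = 6.37e-05 by limma. Gene 1090179 (scaffold 7, bases 2075181 to 2076562) had 15364, 3541 and 3357 RPKM in N001 mycelium, against 86.3, 20.4 and 20.4 RPKM in HyB, a log2 difference of 7.37 ± 0.67 (SE; adjusted p = 8.49e-07 by limma). In both genes the lowest N001 library exceeded the highest HyB library more than 10-fold. PC9 had 11.1, 5.44 and 5.89 RPKM for 1113759, close under HyB replicates 2 and 3, and 14.5, 2.34 and 3.07 RPKM for 1090179. The HyB mean of 1113759 therefore passed the threshold of the set through replicate 1.

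These genes parted in fruiting. Gene 1090179 had 8712, 6212 and 6195 RPKM in primordium and 7314, 9436 and 5120.5 RPKM in fruitbody, all within the range of the N001 mycelium libraries. Gene 1113759 had 836, 731 and 727 RPKM in primordium and 18.4, 205 and 97.8 RPKM in fruitbody, under every N001 mycelium library.

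In the opposite direction, 1083326 (scaffold 4, bases 3113203 to 3114187) had 21.1, 17.2 and 21.5 RPKM in N001 mycelium, against 626, 249 and 232 RPKM in HyB. The log2 difference was −3.99 ± 0.46 (SE; adjusted p = 1.45e-05 by limma). Gene 1082659 (scaffold 4, bases 304936 to 305662) had 8.46, 50.9 and 39.3 RPKM in N001 mycelium, against 229.7, 136 and 139 RPKM in HyB, a log2 difference of −2.60 ± 0.47 (SE; adjusted p = 0.00143 by limma). For both, no N001 mycelium library reached the lowest HyB library, and fruitbody was lower again, at 2.78, 1.69 and 0.827 RPKM for 1083326 and 2.17, 2.04 and 1.51 RPKM for 1082659.

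Gene 1090489 (scaffold 8, bases 1952942 to 1954034), by contrast, was high in both dikaryons, with 2683, 4526 and 4141 RPKM in N001 mycelium and 1529, 2091 and 2089 RPKM in HyB. Its PC9 libraries held 580.2, 20.6 and 10.6 RPKM and its PC15 libraries 5.95, 4.61 and 5.2 RPKM. PC9 replicate 1 was more than 20 times higher than either other PC9 library, though below every dikaryon mycelium library.

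Between the monokaryons, PC9 against PC15, limma called 31 members higher and 37 lower in PC9, 18.7% of the set, against 46.8% of all genes tested (16.1% higher and 30.6% lower). The rule favoured genes low in both monokaryons, where log2(RPKM + 1) compresses differences, so nothing is read from the smaller share. With a pseudocount of 0.1 in place of 1, 37 were higher and 60 lower, and the share of all genes under that setting is not given. The median log2 difference over all genes tested was −0.23. With every library centred on its median, 43 members were higher and 30 lower, where 46.6% of all genes passed, so the balance of directions depends on the scaling. It also turned without PC15 replicate 1, at 30 higher and 21 lower, without PC9 replicate 2, at 31 and 28, and without PC9 replicate 3, at 33 and 27. Counted on reads recovered from the RPKM values with edgeR, 72 were higher and 50 lower, where 49.0% of all genes passed. From replicates 2 and 3 alone 66 were higher and 107 lower, where 58.8% of all genes passed.

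A few members had next to no mRNA in 1 monokaryon, and more in the dikaryons than in the other monokaryon. Gene 1089661 (scaffold 5, bases 2888548 to 2889466) had 0.0880, 0.0446 and 0 RPKM in PC9 and 23.7, 15.4 and 19.6 RPKM in PC15, a log2 difference of −4.28 ± 0.24 (SE; adjusted p = 4.49e-10 by limma). The dikaryons were higher than either monokaryon, with 87.1, 106 and 108 RPKM in HyB and 116, 142 and 96.8 RPKM in N001 mycelium. Gene 1095268 (scaffold 1, bases 1455946 to 1456493) had 0.591, 1.12 and 0.735 RPKM in PC9 and 27.7, 18.1 and 16 RPKM in PC15 (log2 difference −3.55 ± 0.34, SE; adjusted p = 3.18e-07 by limma).

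The reverse held for 1051259 (scaffold 11, bases 2650021 to 2651017), with 76.0, 33.2 and 18.3 RPKM in PC9 and 0.440, 0.471 and 0.340 RPKM in PC15 (log2 difference 4.71 ± 0.36, SE; adjusted p = 2.32e-08 by limma). Gene 1071120 (scaffold 5, bases 518382 to 519029) had 26.7, 20.3 and 284 RPKM in PC9 and 0.226, 0.198 and 0.131 RPKM in PC15 (log2 difference 5.54 ± 0.73, SE; adjusted p = 1.28e-05 by limma). At 1071120 PC9 replicate 3 was as high as the dikaryons, which held 256, 346 and 287 RPKM in HyB and 90.3, 349.6 and 341 RPKM in N001 mycelium. For the other 3 genes every library of the higher monokaryon lay below every dikaryon mycelium library.

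In the fruiting stages of N001 most of the set was lower than in its mycelium, while a smaller share was not. The median mRNA of the 363 genes was 13.4, 10.6 and 10.9 RPKM in primordium and 7.03, 9.38 and 7.29 RPKM in fruitbody. The median log2 difference from N001 mycelium was −2.47 in primordium and −3.06 in fruitbody, against −0.11 and −0.14 over all genes tested. At least 2 below N001 mycelium were 212 members in primordium and 242 in fruitbody, where 6.13% and 9.23% of all tested genes were. For 210 members this was so in both stages. At or below the higher monokaryon mean stood 106 members in primordium and 154 in fruitbody. The rule capped how far a member could rise in fruiting but set no lower limit. It also chose members for a high level in N001 mycelium, which favours lower values elsewhere, so these shares are given without a test.

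On the other side, 99 members were still at least 2 above both monokaryons in both stages, and 57 lay within 1 of N001 mycelium in both. Leaving aside 9 of the 99 that were also among the 210, the other 90 had library medians of 71.4 to 82.1 RPKM in primordium and 79.0 to 93.0 RPKM in fruitbody. In mycelium they had 24.4 to 67.1 RPKM in HyB and 72.6 to 100.2 RPKM in N001, against 1.96 to 2.89 RPKM in PC9 and 2.70 to 4.09 RPKM in PC15. The other 201 of the 210 had medians of 3.02 to 4.17 RPKM in primordium and 2.23 to 2.84 RPKM in fruitbody. Those values lie within or beside the range of PC9, at 1.90 to 3.0 RPKM, and PC15, at 2.57 to 4.36 RPKM.

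**Figure D3:**
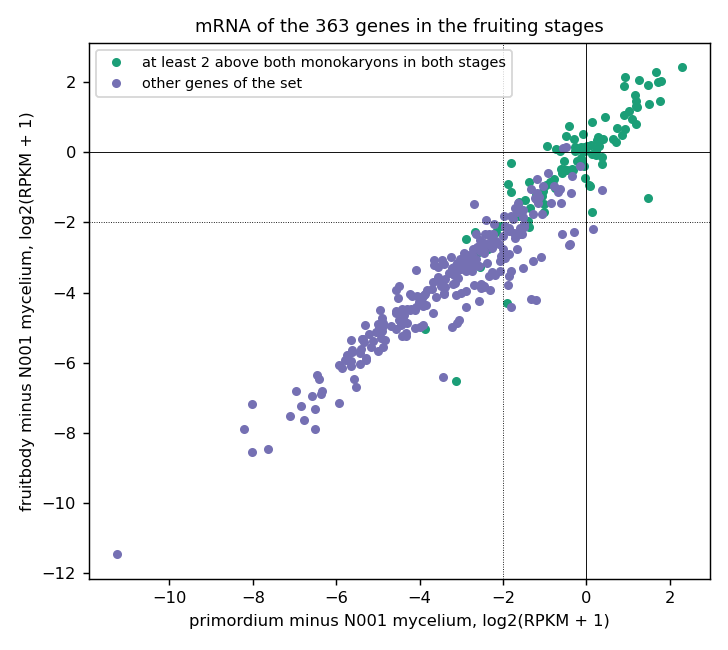
mRNA of the 363 genes in fruiting, as the log2(RPKM + 1) mean of primordium minus N001 mycelium (horizontal axis) and fruitbody minus N001 mycelium (vertical axis), 1 point per gene. The 99 genes still at least 2 above both monokaryons in both stages lie mostly near 0, and 210 genes lie at or below −2 on both axes (dotted lines). The axes share the N001 mycelium libraries, so the alignment of the points is in part built in.

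In fruitbody against primordium few members differed. The limma test called 0 higher and 5 lower in fruitbody, 1.38% of the set, against 0.275% of all genes tested (0.229% lower). At an unadjusted p under 0.05 there were 44 in either direction, but the share of all genes at that level is not given, so nothing is read from it. With edgeR on the recovered reads 0 were again higher and 5 lower, where 18 of 11089 genes tested were lower. At 1034502 (scaffold 2, bases 918272 to 918885) mRNA was 7.03, 8.48 and 15.7 RPKM in fruitbody, against 158, 61.9 and 64.2 RPKM in primordium (log2 difference −3.0 ± 0.40, SE; adjusted p = 0.00941 by limma). Gene 1088548 (scaffold 3, bases 2515194 to 2518073) had 27.1, 23.2 and 38.7 RPKM in fruitbody, against 245, 202 and 199.95 RPKM in primordium (log2 difference −2.85 ± 0.54, SE; adjusted p = 0.0378 by limma). The fruitbody libraries lay below all primordium libraries in both genes. The call of 1034502 was lost without fruitbody replicate 1, and that of 1088548 without any 1 of the libraries other than fruitbody replicate 2. The call of 1088548 was also lost by edgeR on the recovered reads, with no filter on low values and with the near-identical libraries averaged. The number of calls fell to 0 without fruitbody replicate 1, to 1 without any of the primordium libraries and to 2 without fruitbody replicate 3, and it was 8 without fruitbody replicate 2. Replicates 2 and 3 alone gave 9 higher and 27 lower, where 5.44% of all genes passed.

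Small RNA reads over the same genes were not used by the rule. Their median over the 363 genes was 5.79, 16.8 and 18 RPM (reads per 1000000 gene and TE reads) in HyB and 22.7, 38.5 and 34.9 RPM in N001 mycelium, against 1.04, 2.35 and 2.5 RPM in PC9 and 2.28, 1.56 and 1.66 RPM in PC15. As with mRNA, all 6 dikaryon mycelium medians lay above all 6 monokaryon medians, and HyB replicate 1 was the lowest of the 6. The sources used here give neither the length of the reads nor their strand, so reads from processed small RNAs and from fragments of mRNA were not told apart.

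**Figure D4:**
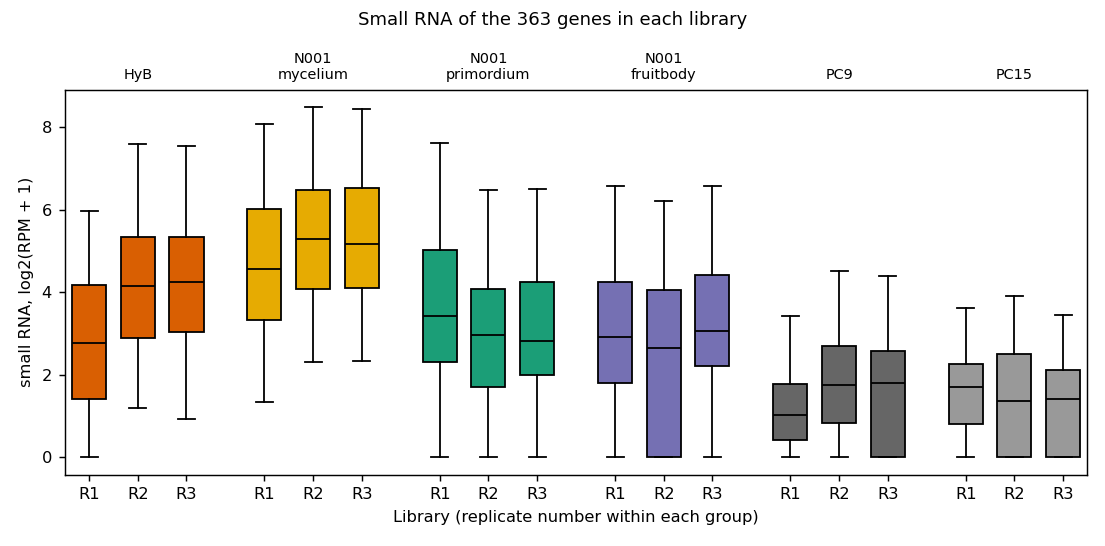
Small RNA of the 363 genes in each of the 18 small RNA libraries, as log2(RPM + 1). Boxes span the quartiles with a line at the median and whiskers reach the 5th and 95th percentiles over genes. Medians are 5.79 to 38.5 RPM in the dikaryon mycelia, 5.22 to 9.82 RPM in primordium and fruitbody, and 1.04 to 2.5 RPM in the monokaryons.

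Dikaryon mycelia were compared with monokaryons by edgeR's quasi-likelihood test on the small RNA counts. Without a filter on low counts, 322 of the 363 genes were higher in the dikaryons and 0 lower at an adjusted p under 0.05, where 12.8% of all genes were higher. With edgeR's filter, 106 members were not tested for low counts, and 247 were higher and 0 lower, against a share of 18.7% of all genes tested. Genes kept by that filter through their high counts in the dikaryons were bound to differ, so the first count is the one over all members. DESeq2 called 245 higher and 0 lower of the 257 tested, where 1260 of 6670 genes tested were higher. At an unadjusted p under 0.05 edgeR gave 253, and the share of all genes at that level is not given. Group means were higher in the dikaryons for all 363, by a median of 2.72 on the log2(RPM + 1) scale, against 0.15 over all genes. Libraries did not overlap for 156 members, against 3.8% of all genes, and 11 members had 0 reads in all 6 monokaryon libraries. Replicates 2 and 3 alone gave 256 higher and 0 lower, where 25.5% of all genes tested were higher.

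Gene 1087630 (scaffold 1, bases 1555333 to 1556419) had 25.6, 216 and 139 RPM in HyB and 327, 577 and 907 RPM in N001 mycelium, against 0.174, 1.57 and 1.25 RPM in PC9 and 2.28, 1.56 and 3.32 RPM in PC15. Behind these stood 216, 435 and 676 reads in N001 mycelium and at most 3 reads in any monokaryon library. The log2 difference, dikaryons minus monokaryons, was 7.28 ± 0.53 (SE; adjusted p = 5.99e-08 by edgeR's quasi-likelihood test). Its mRNA followed the same order, with 157, 692 and 654 RPKM in HyB and 1281, 1944 and 2482 RPKM in N001 mycelium, against 2.38, 2.52 and 4.81 RPKM in PC9 and 10.2, 5.5 and 5.42 RPKM in PC15.

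Gene 1091049 had 22.3, 302 and 319 RPM in HyB and 99.9, 113 and 233 RPM in N001 mycelium, against 0.348, 0 and 0 RPM in PC9 and 0.759, 3.12 and 3.32 RPM in PC15 (log2 difference 7.15 ± 0.72, SE; adjusted p = 7.29e-07 by edgeR's quasi-likelihood test). All 6 dikaryon libraries exceeded all 6 monokaryon libraries for both genes. At 1089236, whose mRNA was near 0 in monokaryons, small RNA was 34, 23 and 26 reads in HyB and 29, 43 and 54 reads in N001 mycelium, against 0, 0 and 0 reads in PC9, which allows up to 0.384 RPM over the group, and 2, 0 and 0 reads in PC15. Gene 1090489, among the most abundant in mRNA, had 305, 489 and 547 RPM in HyB and 734, 2715 and 3085 RPM in N001 mycelium, against 35.2, 14.9 and 8.75 RPM in PC9 and 14.4, 15.6 and 13.3 RPM in PC15.

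Gene by gene, the small RNA difference followed the mRNA difference. Over the 363 genes the mean differences of dikaryon mycelia minus monokaryons had a Pearson r of 0.631 and a Spearman rho of 0.562, and over all 10928 genes tested for mRNA 0.776 and 0.690. For N001 mycelium minus HyB the members gave an r of 0.820 and a rho of 0.782, against 0.635 and 0.520 for all genes. These are correlations across genes within one set of libraries; genes are not independent replicates, and both axes depend on gene level and read depth.

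**Figure D5:**
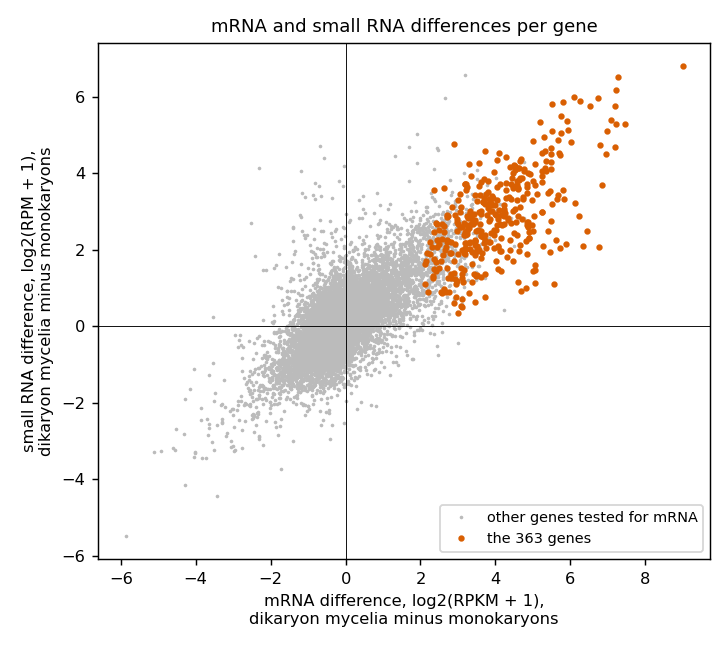
Difference in mRNA, log2(RPKM + 1), and in small RNA, log2(RPM + 1), between dikaryon mycelia and monokaryons, 1 point per gene tested for mRNA. All 363 genes lie above 0 on the small RNA axis, with a median of 2.72, while their place on the mRNA axis (median 3.87) was set by the rule. The other genes spread along the same diagonal on both sides of 0.

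Between the dikaryons, edgeR's test of small RNA in N001 mycelium against HyB called 11 of 257 members higher and 1 lower, against 4.29% of all genes tested (1.29% higher and 3.0% lower). Gene 1113759 had 3702, 2119 and 2469.6 RPM in N001 mycelium, against 33.1, 51.6 and 5.40 RPM in HyB (log2 difference 5.84 ± 0.75, SE; adjusted p = 0.000132 by edgeR's quasi-likelihood test). Gene 1090179 had 1617, 1431 and 2136 RPM in N001 mycelium, against 14.1, 55.5 and 11.7 RPM in HyB (log2 difference 5.30 ± 0.78, SE; adjusted p = 0.000554 by edgeR's quasi-likelihood test). These are the genes with the largest mRNA difference in the same direction, and no library of the dikaryons overlapped in either assay.

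The 1 gene with less small RNA in N001 mycelium was 48333 (scaffold 1, bases 2503763 to 2505543), at 13.6, 9.29 and 8.05 RPM in N001 mycelium, against 17.4, 14.2 and 40.5 RPM in HyB (log2 difference −1.96 ± 0.48, SE; adjusted p = 0.0244 by edgeR's quasi-likelihood test). Its mRNA was 31.9, 32.6 and 10.8 RPKM in N001 mycelium, against 137, 128 and 113 RPKM in HyB. Scaling by library totals moved the median of all genes to 0.74 in N001 mycelium over HyB, and on that scale 43 members were higher and 0 lower, where 3.38% of all genes were higher, so the counts here are read relative to the other genes. Replicates 2 and 3 alone gave 45 higher and 17 lower, where 12.1% of all genes passed. The total of 12 calls fell to 7 without HyB replicate 1 or N001 mycelium replicate 3 and to 6 without N001 mycelium replicate 2, and the call of 48333 was lost without HyB replicate 3 or N001 mycelium replicate 2 or 3.

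In primordium against N001 mycelium, small RNA was lower mainly for genes whose mRNA was lower. The quasi-likelihood test of edgeR called 1 of 257 members higher and 64 lower, where 3.94% of all genes tested were higher and 2.79% lower. Members were chosen for high mRNA in N001 mycelium, and small RNA followed mRNA over genes, so lower values in primordium were favoured. Genes kept by the low-count filter through their mycelium counts were favoured further. The excess over the shares of all genes is therefore not read as a trait of the set. Without the low-count filter the count over all 363 was also 1 higher and 64 lower, where 1.42% of all genes were lower. Of the 64 lower with the filter, 60 were among the 138 tested of the 210 genes whose mRNA was at least 2 below N001 mycelium in both stages, and over those 210 the median small RNA difference was −2.45 on the log2(RPM + 1) scale. The other 4 were among the 119 tested of the remaining 153 genes, whose median was −0.28. Over the 363, the mRNA and small RNA differences had an r of 0.768 and a rho of 0.769, and over all genes 0.655 and 0.552. The total of 65 calls fell to 23 to 31 without any 1 of the primordium libraries or of N001 mycelium replicates 2 and 3. It was 108, all lower, when scaled by library totals, which puts the median of all genes at −0.55 and calls 4.14% of them lower. The libraries of replicates 2 and 3 alone gave 8 higher and 127 lower, where 8.0% of all genes were lower.

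Gene 1040870 (scaffold 5, bases 823785 to 825622) had 9.82, 0 and 3.01 RPM of small RNA in primordium, against 195, 198 and 445 RPM in N001 mycelium (log2 difference −5.38 ± 0.87, SE; adjusted p = 0.00102 by edgeR's quasi-likelihood test). At 163005 (scaffold 11, bases 195843 to 198154) primordium held 0, 0 and 0 reads, against 17, 24 and 42 reads in N001 mycelium. A count of 0 over the group allows 3 reads, so the pooled level was at least 16.4-fold lower in primordium; this limit covers counting error only. Its mRNA was 0.578, 0.512 and 0.388 RPKM in primordium, against 59.6, 70.0 and 116 RPKM in N001 mycelium. For both genes no primordium library reached the lowest mycelium library.

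The 1 gene that rose was 1077497 (scaffold 6, bases 983479 to 985212). It had 354, 334 and 265 RPM in primordium, against 92.4, 135 and 102 RPM in N001 mycelium (log2 difference 2.17 ± 0.57, SE; adjusted p = 0.0273 by edgeR's quasi-likelihood test). Its mRNA was 1076, 1469 and 1503 RPKM in primordium, against 140.3, 489 and 291 RPKM in N001 mycelium, and the libraries did not overlap in either assay. The call was lost when scaled by library totals, and without any library of either group other than primordium replicate 1.

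In fruitbody against primordium only 1098006 (scaffold 9, bases 979368 to 981761) passed, with less small RNA, where 0.045% of all genes tested did. No member was higher by edgeR or by DESeq2. At an unadjusted p under 0.05 edgeR gave 15 in either direction, but the share of all genes at that level is not given, so nothing is read from it. Replicates 2 and 3 alone gave 2 higher and 9 lower, where 3.01% of all genes passed. Gene 1098006 had 7.41, 5.22 and 9.19 RPM in fruitbody, against 153, 59.2 and 30.1 RPM in primordium (log2 difference −3.15 ± 0.52, SE; adjusted p = 0.019 by edgeR's quasi-likelihood test). Its mRNA was 3.74, 5.13 and 4.47 RPKM in fruitbody, against 62.8, 23.5 and 21.3 RPKM in primordium. The small RNA call was lost without any of 5 of the 6 libraries, the exception being primordium replicate 3.

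CG methylation of the genes was low in nearly the whole set, with medians close to those of all genes. The median level of the members was 0.218% in HyB, 0.215% in N001 mycelium, 0.238% in primordium, 0.227% in fruitbody, 0.224% in PC9 and 0.224% in PC15. All genes had medians of 0.219% to 0.236%. In every group with a value 340 members averaged under 0.5%. The same count over all genes is not given, so this is not read as a trait of the set. A mean over 10% in some group was found for 2 members, 0.551%, against 1067 of 11652 genes with a value, 9.16%. The rule required mRNA in both dikaryon mycelia, and the share among other genes with that much mRNA is not given. The smaller share is therefore not read as a trait of the set either. The coverage behind each level is unknown, so no interval is given.

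For dikaryon mycelia against monokaryons, limma on percentage points called 5 members higher and 6 lower of 357 tested, 3.08%, against 7.53% of all genes (5.09% higher and 2.44% lower). All 11 differences were under 1 percentage point, from −0.79 at gene 1058778 to 0.39 at gene 1109151. For N001 mycelium against HyB it called 6 higher and 11 lower, 4.76%, against 7.52% of all genes (5.88% higher and 1.64% lower). In primordium against mycelium and in fruitbody against primordium 0 members passed, as did 0.0% of all genes. At an unadjusted p under 0.05 there were 14 and 19 of the 357 members tested, by limma. The share of all genes at that level is not given, so nothing is read from these counts.

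The 2 methylated members were neighbours on scaffold 11, separated by 7909 bases with 0 listed genes between them. Gene 1110053 (scaffold 11, bases 2792845 to 2794089) was methylated at 17, 23.1 and 24.3% in HyB and 38.2, 39.3 and 42.2% in N001 mycelium, against 56.6, 54.1 and 53.9% in PC9 and 0.455, 0.732 and 0.477% in PC15. Gene 1110054 (scaffold 11, bases 2801999 to 2803173) had 21.6, 25.6 and 25.1% in HyB and 41.5, 32.9 and 38.4% in N001 mycelium, against 59.9, 57.2 and 57.3% in PC9 and 0.375, 0.377 and 0.319% in PC15. PC9 and PC15 therefore stood at opposite ends and both dikaryons between them, with no overlap between any of the 4 groups at either gene. N001 mycelium exceeded HyB by 18.44 ± 1.84 percentage points (SE; adjusted p = 1.28e-06 by limma) at 1110053 and by 13.51 ± 2.90 percentage points (SE; adjusted p = 0.00492 by limma) at 1110054.

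Methylation and mRNA took different orders across the groups at this pair. The mRNA of 1110053 was 30.6, 88.3 and 96.0 RPKM in HyB and 23.5, 55.0 and 45.5 RPKM in N001 mycelium. In the methylated monokaryon PC9 it was 0 RPKM in all 3 libraries, which allows up to 0.0337 RPKM over the group. In the unmethylated monokaryon PC15 it was 0.557, 0.137 and 0.238 RPKM. For 1110054 it was 38.8, 131 and 133 RPKM in HyB and 30.8, 60.2 and 52.8 RPKM in N001 mycelium, against 0.241, 0 and 0.0761 RPKM in PC9 and 1.77, 1.27 and 0.974 RPKM in PC15. Both monokaryons were thus low and both dikaryons higher. At both genes every PC15 library lay above every PC9 library, with adjusted p = 0.0301 at 1110054 and 0.427 at 1110053 by limma. HyB averaged 71.6 RPKM and N001 mycelium 41.3 RPKM at 1110053. At 1110054 they averaged 101 and 47.9 RPKM. Libraries of HyB and N001 mycelium overlapped at both genes, and neither difference passed. Whether methylation bears on these levels was not tested. Through fruiting, methylation of 1110053 was 40.0 and 38.6% in primordium and 37.8, 36.8 and 39.6% in fruitbody, beside 38.2, 39.3 and 42.2% in N001 mycelium. Its mRNA there was 3.68, 4.59 and 4.35 RPKM in primordium and 4.50, 3.49 and 5.5 RPKM in fruitbody, under every N001 mycelium library. Small RNA at 1110054 was 13, 17 and 21 reads in HyB and 16, 29 and 18 reads in N001 mycelium. It was 1, 1 and 0 reads in PC9 and 0, 0 and 0 reads in PC15, so the methylated monokaryon had next to none either.

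Smaller differences concerned 1072574 and 1060173. Gene 1072574 (scaffold 9, bases 1685751 to 1687095) had 2.13, 1.65 and 1.72% in N001 mycelium, against 2.51, 2.46 and 3.73% in HyB, a difference of −1.07 ± 0.27 percentage points (SE; adjusted p = 0.0191 by limma), with 5.46, 6.04 and 5.75% in PC9. Gene 1060173 (scaffold 11, bases 2282942 to 2283993) had 0.365, 0.140 and 0.211% in N001 mycelium, against 1.15, 1.62 and 0.948% in HyB (difference −0.999 ± 0.16 percentage points, SE; adjusted p = 0.000362 by limma), with 0.296, 0.181 and 0.132% in PC9 and 1.48, 1.45 and 2.13% in PC15. HyB libraries lay above all N001 mycelium libraries in both genes. The call of 1072574 was lost without HyB replicate 3, where the difference was −0.65, and without N001 mycelium replicate 2 or 3.

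No PC9 methylation value was listed for 6 members, so they were not tested for methylation. In PC9 these 6, genes 1096724, 1105413, 1050747, 1105412, 1089661 and 172208, had a mean mRNA of 0 to 0.0442 RPKM and 0 to 5 small RNA reads in all. In PC15 their means were 0.460 to 19.6 RPKM, against 10.6 to 100.5 RPKM in HyB and 20.5 to 118 RPKM in N001 mycelium. Whether PC9 carries these sequences was not tested.

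In the genome the members lay closer together than genes at large lay to them. Another member was found within 10 kb for 133 of the 363, 36.6%, whereas 19.8% of all 11820 genes had a member that near. Within 5 kb the shares were 27.3% of members and 11.5% of all genes, and within 20 kb 47.7% and 33.0%. Adjacent members in gene order made 44 pairs. Runs in which each member lay within 10 kb of the next numbered 56 and held those 133 members, of which 13 runs of at least 3 held 47. Every scaffold from 1 to 11 held members, at 2.06% to 4.53% of its genes with scaffold 11 the highest, and scaffold 12 held 0 of 86.

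The longest run, 6 members among 12 listed genes, lay on scaffold 1 from 428190 to 453595 and held 1110193, 172669, 1098607, 1080163, 1098611 and 1080166. Gene 1110193 had 15.7, 125 and 128 RPKM in HyB and 161, 612 and 166 RPKM in N001 mycelium, against 0.795, 1.15 and 1.22 RPKM in PC9 and 4.33, 1.95 and 2.77 RPKM in PC15. Gene 172669 had 10.2, 81.3 and 78.6 RPKM in HyB and 12.4, 76.9 and 50.7 RPKM in N001 mycelium, against 2.45, 2.76 and 3.32 RPKM in PC9 and 4.81, 3.84 and 3.04 RPKM in PC15. HyB replicate 1 was the lowest dikaryon mycelium library of both genes, yet above every monokaryon library.

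Within this run the genes differed in fruiting. Gene 172669 had 36.7, 53.0 and 49.7 RPKM in primordium, within the range of its N001 mycelium libraries, and 1098607 had 56.3, 37.8 and 36.3 RPKM in primordium, above its N001 mycelium libraries at 5.15, 31.4 and 33.4 RPKM. At 1110193 primordium had 6.79, 20.1 and 19.99 RPKM, under every N001 mycelium library, and at 1080166 79.9, 48.7 and 48.1 RPKM, against 149.6, 718 and 434 RPKM in N001 mycelium. N001 mycelium replicate 2 was the highest library for 1110193, 1080163 and 1080166, with 95.8, 510.0 and 92.9 RPKM at 1080163 in N001 mycelium. Genes 1098607 and 1080163 overlap each other by their listed ends, so reads in the overlap could not be told apart.

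On scaffold 11, from 369645 to 380668, 4 of 6 listed genes were members. For 3 of the 4 mRNA was higher in PC9 than in PC15. Gene 1024554 had 12.6, 22 and 23.3 RPKM in PC9 and 3.14, 1.28 and 0.667 RPKM in PC15 (log2 difference 2.97 ± 0.68, SE; adjusted p = 0.0019 by limma), and 1079640 had 5.28, 5.83 and 2.57 RPKM in PC9 and 1.34, 0.613 and 0.332 RPKM in PC15 (log2 difference 1.64 ± 0.50, SE; adjusted p = 0.0134 by limma). In the dikaryons 1024554 had 59.2, 275 and 272 RPKM in HyB and 139, 341 and 339 RPKM in N001 mycelium. In fruitbody all 4 genes were below their N001 mycelium means, with 1024554 at 0.653, 1.03 and 0.700 RPKM and 1059758, the least changed, at 15.8, 17.6 and 19.4 RPKM in fruitbody, against 18, 48.1 and 45.8 RPKM in N001 mycelium. For the remaining gene, 1114496, the difference between PC9 and PC15 did not pass (adjusted p = 0.237 by limma). It averaged 76.2 ± 57.0 RPKM in HyB and 117 ± 34.0 RPKM in N001 mycelium, against 7.11 ± 10.4 RPKM in PC9 and 0.970 ± 0.593 RPKM in PC15 (SD, n = 3 each).

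On scaffold 8, from 581866 to 593184, 4 of 5 listed genes were members, beginning with 1113759 described above. Its neighbour 1113760 had 280.2, 239 and 181 RPKM in N001 mycelium, against 74.6, 95.7 and 94.7 RPKM in HyB (log2 difference 1.38 ± 0.41, SE; adjusted p = 0.0414 by limma), the same direction at a far smaller size. Further along, 3428 had 179, 216 and 209.6 RPKM in N001 mycelium and 22.7, 236 and 239 RPKM in HyB, against 1.71, 2.01 and 1.75 RPKM in PC9 and 3.26, 1.72 and 1.41 RPKM in PC15. It kept 170.4, 242 and 244 RPKM in primordium and 229, 271 and 197 RPKM in fruitbody. Gene 1078511 had 5.56, 11.1 and 7.67 RPKM in fruitbody, against 63.9, 178 and 142 RPKM in N001 mycelium, and 1113760 had 11.9, 21.6 and 7.61 RPKM. Neighbours in this run thus differed in whether they were lower in fruitbody. Runs of 4 were also found on scaffold 10 from 735445 to 747011, where all 4 listed genes were members, on scaffold 5 and on scaffold 7.

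A run of 3 members on scaffold 4, from 3113203 to 3118839, held 1083326, 1089236 and 1083327 and no other listed gene. It sets beside each other 1089236, at one level in all dikaryon groups, 1083326, lower in N001 mycelium than in HyB, and 1083327, which had 22.8, 111 and 83.9 RPKM in N001 mycelium, against 0.885, 26.8 and 25.6 RPKM in HyB. It was singled out after its values were seen.

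Few members lay near a TE. A listed TE copy lay within 1 kb of 4 members, 1.10%, against 3.84% of all genes, and within 5 kb of 23, 6.34%, against 11.8%. The shares among other genes with as much mRNA in the dikaryons are not given, so the smaller shares are not read as a trait of the set. The median distance to the nearest TE copy was 40107 bases for members and 36630 bases for all genes, and 0 members overlapped one. Median gene length was 1428 bases in the set and 1413 bases over all genes. Of the members, 11 overlapped another listed gene, and the counting program's treatment of such overlaps is not given in the sources used here.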

How the data were processed

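Polyadenylated mRNA, small RNA and bisulfite-treated DNA were measured in 6 groups. RNA and DNA were isolated with column kits and made into Illumina libraries, per the labels' protocols. FastQC, STAR and BS-Seeker2 are named, per the submitters' processing notes. The sources used here do not give the genome build, the small RNA aligner, or how reads were counted and on which strand. The authors deposited mRNA as RPKM per gene, small RNA as a read count per gene and TE copy, and CG methylation as a fraction per gene, per the file headers. Fractions are printed as percent.

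RPKM values gave whole reads for 95.7% to 96.0% of values per library within 0.01 read. Group means of log2(RPKM + 1) chose the members. Genes with at least 1 RPKM in at least 3 libraries were tested with limma 3.58.1 (R 4.3.3). Small RNA counts were tested with edgeR 4.0.16 (TMM, filterByExpr, quasi-likelihood), and DESeq2 1.42.0 was an alternative. Methylation was tested with limma where every library had a value, which left 357 members. All groups shared a fit, p-values were two-sided with Benjamini-Hochberg adjustment, and the scripts were tested on simulated data. A count of 0 was given a limit of 3 reads over the group, which covers counting error only. Among mRNA rows, 8 held 2 merged entries each, none of them members.

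Members, lists and tests were chosen with earlier results of these data known. Named members were the 8 with the largest margin, the 4 with the highest mean RPKM, the 3 on either side of the threshold, up to 2 of the largest called rises and falls per tested comparison with no overlap of libraries, and the members of the 3 largest runs. The tie among 5 runs of 4 was broken by the shorter span, after the data were seen. Coordinates are those of the mRNA table, which start 1 base above the other tables.

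Same-numbered mRNA libraries deviated together from their group means in PC9 and PC15 (correlations over genes 0.307, 0.292 and 0.206) and in N001 mycelium and HyB (0.334, 0.139 and 0.318). In primordium and fruitbody the values were 0.359, −0.0701 and 0.508. Deviations were taken from means of 3 libraries, so a shift of replicate 1 shared by 2 groups would raise all 3 of their correlations. The values therefore do not settle whether the numbers pair the libraries, and no label says what a number shares. All values in the report come from fits without a replicate block, and the blocked fit was an alternative. Whether groups of replicates were separate cultures is stated only as biological replication.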

Additional observations from a re-analysis of the deposited data

Results flagged for a closer look

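Within the 363 genes, 11 results were flagged where the dikaryons differed from each other, N001 mycelium minus HyB. Each passed the test of that difference, with no overlap between the libraries. They are the largest such rises and falls, up to 2 of each per assay, and further members met the same conditions. Members called were 10.5% for mRNA, 4.67% for small RNA and 4.76% for methylation. Of all genes tested, 11.1%, 4.29% and 7.52% were called, in the same order. Groups of 3 libraries are too small for a search for single outlying samples.

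For mRNA these were gene 1113759 at 7.46 ± 0.99 and gene 1090179 at 7.37 ± 0.67, higher in N001 mycelium, and gene 1083326 at −3.99 ± 0.46 and gene 1082659 at −2.60 ± 0.47, lower in N001 mycelium (log2 difference ± SE by limma). For small RNA they were gene 1113759 at 5.84 ± 0.75 and gene 1090179 at 5.30 ± 0.78, higher in N001 mycelium, and gene 48333 at −1.96 ± 0.48, lower in it (log2 difference ± SE by edgeR). For CG methylation they were gene 1110053 at 18.44 ± 1.84 and gene 1110054 at 13.51 ± 2.90 percentage points, higher in N001 mycelium, and gene 1072574 at −1.07 ± 0.27 and gene 1060173 at −0.999 ± 0.16 percentage points, lower in it (difference ± SE by limma). Genes 1113759 and 1090179 thus appear in both RNA assays in the same direction. What lies behind these differences was not tested.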

How the results depend on the processing

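Alternatives for replicates 2 and 3 alone and replicate 1 alone were added after seeing the data. Replicates 2 and 3 alone called 173 members for mRNA in PC9 against PC15, 139 in N001 mycelium against HyB and 36 in fruitbody against primordium. For small RNA they called 62, 135 and 11 in N001 mycelium against HyB, primordium against N001 mycelium and fruitbody against primordium. On them the rule chose 549 genes, and on replicate 1 alone 112. The edgeR test of recovered reads called 122 members in PC9 against PC15. For mRNA in fruitbody against primordium, 2 were called with no filter on low values, 1 with near-identical libraries averaged and 9 with the replicate block. Scaling small RNA by library totals called 43 members in N001 mycelium against HyB and 108 in primordium against N001 mycelium. Counting TE copies by overlap gave 0 members and within 5 kb gave 23.

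Leaving out a library in turn gave 51 to 67 members for mRNA in PC9 against PC15, 24 to 51 in N001 mycelium against HyB and 0 to 8 in fruitbody against primordium. For small RNA it gave 255 to 286 in dikaryon mycelia against monokaryons, 6 to 13 in N001 mycelium against HyB, 23 to 76 in primordium against N001 mycelium and 0 to 1 in fruitbody against primordium. For methylation it gave 8 to 14 in dikaryon mycelia against monokaryons and 13 to 21 in N001 mycelium against HyB. The rule chose 319 to 434 genes. No gene called under both settings changed sign under any alternative run, but the balance of directions turned for mRNA. In N001 mycelium against HyB it was 19 higher and 32 lower without HyB replicate 1, and in PC9 against PC15 it was 43 and 30 with centring and 72 and 50 with edgeR. Among the named genes, 22 of 150 leave-one-out values and 5 of 127 other values lost their call.

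The replicate block moved the mRNA counts to 76 in PC9 against PC15 and 42 in N001 mycelium against HyB, of which 34 were among the 38 called without it. For small RNA the same-numbered libraries did not all deviate together. With the block 250, 17, 62 and 1 members were called in the 4 comparisons, in the order dikaryon mycelia, N001 mycelium, primordium and fruitbody, and for methylation 13, 17, 0 and 0. Depth limits the small RNA results, with as few as 191411 reads in a library, and methylation has no coverage behind it.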
